A study of Mus musculus with 20 samples.

Results

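Transcript levels of 10 genes of the Nodal, Activin and BMP branches of TGF-beta signaling were examined in differentiating mouse cells with and without Nox4, an NADPH oxidase that makes hydrogen peroxide. The 10 genes, Nodal, Lefty1, Lefty2, Acvr1c, Inhba, Inhbb, Fst, Bmp2, Bmp4 and Bmp7, were taken by symbol and matched to the Ensembl identifiers of the deposited gene table. They are 10 of 55573 genes in that table and 10 of the 33860 genes that were not 0 throughout the 20 libraries. Levels are given as TMM CPM, that is, counts scaled to a common library size with edgeR's trimmed mean factors over the 20 libraries.

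The libraries came from 4 lines of induced pluripotent stem cells (iPSCs), each sampled once on days 0, 3, 5, 7 and 14, which gave 5 libraries per line. The wild type (WT) lines were WT#1-4 and WT#20D-17, and the knockout lines were Nox4-/- #5-8 and Nox4-/- #5-23. According to the study's methods, iPSCs were made by viral transduction of embryonic fibroblasts with Oct4, Sox2, Klf4 and c-Myc, the knockout ones from Nox4-/- mice. The study's text describes this for WT#1-4 and both Nox4-/- lines, which thus carry these factors. WT#20D-17 was placed with the wild type from its labels, and how it was made is not given in the sources used here. Cells were kept on mitotically inactive fibroblast feeders with LIF and were then aggregated in hanging drops without LIF to form embryoid bodies (EBs), which were plated on gelatin. The labels' titles and day fields give day 14 for the last time point, while their protocol text lists day 10, and day 14 is used here. Each line is 1 clone with 1 library per day, so every test measures the spread among these libraries and lines. In a mixed culture, fewer cells of a type and less RNA per cell cannot be told apart.

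Nodal is a secreted ligand that patterns the early embryo, and its signal passes through Activin receptors, an EGF-CFC co-receptor, Smad2 and Smad3, and the partner factor Foxh1. Lefty1 and Lefty2 are secreted antagonists of Nodal and are themselves induced by it, which closes a feedback loop. Inhba and Inhbb encode the beta subunits that pair to form Activins, Acvr1c encodes the type I receptor ALK7, and Fst encodes follistatin, which binds and neutralizes Activin. Bmp2, Bmp4 and Bmp7 encode bone morphogenetic proteins, which act through Smad1, Smad5 and Smad9 and induce the Id genes. In EBs, Nodal and BMP signals are known for their part in forming endoderm and mesoderm.

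The labels were checked first. The targeted gene Nox4 was between 0.149 and 0.874 CPM in WT#1-4, between 2.62 and 9.01 CPM in WT#20D-17 and at no more than 2 counts in any Nox4-/- library. Libraries held 20294968 to 27708023 counts, and 3 counts, taken as the floor of detection, were thus worth 0.109 to 0.157 CPM. At day 0 the pluripotency genes Nanog, Esrrb and Zfp42 were at 383, 123 and 41.6 CPM in WT#20D-17. In WT#1-4 and both Nox4-/- lines Nanog did not exceed 1.03 CPM on any day, Esrrb did not exceed 0.21 CPM and Zfp42 had 0 counts in all 15 libraries. Transcripts of these 3 markers were thus abundant in WT#20D-17 and at no more than 1.03 CPM in the other 3 lines. Fgf4, another gene of the list of 6 pluripotency markers, had the opposite order on day 0, with 93.4 CPM in WT#20D-17 against 146 CPM in WT#1-4, 135 in Nox4-/- #5-8 and 174 in Nox4-/- #5-23. Utf1 was at 311 CPM on day 0 in WT#20D-17 and between 5.24 and 8.35 CPM in WT#1-4. It had 0 counts in Nox4-/- #5-8 and at most 1 count in a library of Nox4-/- #5-23. By Utf1, WT#1-4 was thus apart from the Nox4-/- lines as well. Summed over the 6 markers, day 0 levels were 152, 135 and 174 CPM in WT#1-4, Nox4-/- #5-8 and Nox4-/- #5-23, against 1851 CPM in WT#20D-17. WT#20D-17 thus stands apart from the other 3 lines, and genotype was compared against each wild type line separately.

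The genes lie apart on the mouse genome (GRCm38), except for the Lefty pair. Lefty2 (chr1:180893108-180899103) and Lefty1 (chr1:180935022-180938400) are neighbours on the plus strand. Nodal is at chr10:61417972-61425338 on the plus strand, Inhba at chr13:16011851-16031621 on the plus strand and Bmp4 at chr14:46383520-46390669 on the minus strand. For 5 of the 10 genes the start site was listed among RefSeq promoters of GRCm38.p6, and the 250 bases before it are shown for Nodal, Inhba and Bmp4, on which the results for genotype and day turn. Capitals mark the motif found in each, which is CCAAT for Nodal, TATAAA for Inhba and CACGTG for Bmp4.
Nodal promoter (chr10:61417722-61417971, plus strand): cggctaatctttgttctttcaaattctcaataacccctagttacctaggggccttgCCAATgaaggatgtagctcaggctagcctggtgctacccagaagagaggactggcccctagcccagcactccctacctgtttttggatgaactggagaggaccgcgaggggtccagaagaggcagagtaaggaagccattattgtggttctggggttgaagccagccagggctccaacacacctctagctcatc
Inhba promoter (chr13:16011601-16011850, plus strand): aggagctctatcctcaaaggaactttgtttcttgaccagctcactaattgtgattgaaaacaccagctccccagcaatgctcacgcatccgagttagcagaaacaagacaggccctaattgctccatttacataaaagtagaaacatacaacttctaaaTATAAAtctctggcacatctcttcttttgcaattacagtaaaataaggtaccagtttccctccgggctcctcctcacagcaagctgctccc
Bmp4 promoter (chr14:46390670-46390919, minus strand): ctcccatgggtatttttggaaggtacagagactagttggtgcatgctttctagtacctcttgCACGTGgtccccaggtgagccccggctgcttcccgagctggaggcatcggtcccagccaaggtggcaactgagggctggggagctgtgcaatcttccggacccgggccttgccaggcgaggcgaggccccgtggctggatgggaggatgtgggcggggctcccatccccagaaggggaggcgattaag

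The first base of the motif is 194 bases before the start in Nodal, 91 in Inhba and 188 in Bmp4. Both strands were searched. The TATA box TATAAA stands in 12.4% of 32851 listed promoter windows of the same length, the CCAAT box in 33.8% and the E-box CACGTG in 6.02%. The FOXH1-type motif TGTNNATT stands in 10.9%, the Smad palindrome GTCTAGAC in 0.167% and the Smad-type motif with the letters GGCGCC in 9.59%. The motifs do not overlap one another in the 3 windows shown, and a match describes letters only. The letters of the FOXH1-type and both Smad-type motifs are in no window of the 5 listed genes. The number of CG pairs was 3 in Nodal, 3 in Inhba, 11 in Bmp4 and 21 in Inhbb, against a median of 6 in all windows. Acvr1c had 32 at the first of its 2 listed start sites and 2 at the second.

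Nodal transcripts were present in both wild type lines and near the floor in both Nox4-/- lines. In WT#1-4 the levels on days 0, 3, 5, 7 and 14 were 4.22, 8.18, 8.05, 4.59 and 0.248 CPM. In WT#20D-17 they were 145, 60.0, 37.5, 32.8 and 7.40 CPM. Levels in Nox4-/- #5-8 were 0.279, 0.210, 0.153, 0.0963 and 0.0927 CPM, and those in Nox4-/- #5-23 were 0.409, 0.229, 0.0378, 0.178 and 0.255 CPM. WT#20D-17 was above every Nox4-/- library on every day, and WT#1-4 was above both Nox4-/- lines on days 0 to 7. On day 14 the 0.248 CPM of WT#1-4 rested on 5 counts (95% Wilson interval 0.106 to 0.580 CPM, counting error only) and lay within the range of the Nox4-/- libraries. Averaged over days, Nodal was 26.1-fold lower in the Nox4-/- lines than in WT#1-4 and 292-fold lower than in WT#20D-17.

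The antagonists Lefty1 and Lefty2 were abundant in WT#20D-17 at day 0 and scarce elsewhere. Lefty1 in WT#20D-17 was at 408, 45.5, 12.0, 13.8 and 1.84 CPM over the 5 days, and in the other 3 lines it stayed between 0 and 0.671 CPM. The libraries of WT#20D-17 and of the other 3 lines thus did not overlap, as was the case for 6.55% of all genes with WT#20D-17 on the upper side. Lefty2 in WT#20D-17 was at 189, 49.7, 14.6, 9.77 and 0.630 CPM. In WT#1-4 it was at 0.608, 3.14, 1.38, 1.63 and 1.69 CPM, and in the 10 Nox4-/- libraries it was between 0 and 0.696 CPM with a median of 0.214 CPM. Lefty2 was thus higher in WT#1-4 than in both Nox4-/- lines on each day, while for Lefty1 this held on 1 of 5 days. Expected counts of Lefty1 and Lefty2 had decimals in 6 libraries each, which marks reads divided between near-identical sequences.

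Acvr1c, the receptor gene of the set, had the opposite order in the wild type lines. Levels in WT#1-4 were 1.22, 1.87, 1.49, 1.82 and 1.78 CPM over the days. WT#20D-17 had 2 counts in all, 1 on day 3 and 1 on day 5. Nox4-/- #5-8 was between 0.232 and 0.530 CPM and Nox4-/- #5-23 between 0.186 and 0.755 CPM. All 5 libraries of WT#1-4 lay above all 10 Nox4-/- libraries, as was the case for 2.07% of all genes. The Nox4-/- libraries in turn lay above all 5 of WT#20D-17. Of all genes 4.19% had WT#20D-17 below the other 3 lines without overlap. From summed counts, the Acvr1c level in WT#1-4 was 91.2 times that in WT#20D-17, with an exact 95% interval of 24.9 to 758, and the level in the Nox4-/- lines was 22.9 times it, with an interval of 6.17 to 192. These intervals cover counting error only and leave out the spread between libraries. Antisense gene models overlap Acvr1c, with no more than 5 counts in a library.

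The genes for the Activin subunits differed in the order of the lines. Inhba levels in WT#1-4 were 3.11, 3.85, 3.10, 1.86 and 0.397 CPM, and in WT#20D-17 they were 1.27, 2.28, 1.13, 1.51 and 2.15 CPM. In Nox4-/- #5-8 Inhba was at 0.439, 0.755, 0.650, 0.241 and 0 CPM, and in Nox4-/- #5-23 at 0.743, 0.183, 0.227, 0.222 and 0 CPM. Each wild type line was thus above both Nox4-/- lines on every day, and Inhba had 0 counts on day 14 in both Nox4-/- lines.

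Inhbb was highest in Nox4-/- #5-8. Levels there were 5.63, 17.7, 23.3, 19.0 and 27.96 CPM, against 2.90, 2.15, 3.67, 3.33 and 7.87 CPM in Nox4-/- #5-23. In WT#1-4 Inhbb was at 2.51, 1.79, 1.90, 2.20 and 1.88 CPM, with a standard deviation over days of 0.295 CPM. In WT#20D-17 it was at 2.91, 0.431, 0.523, 0.977 and 17.1 CPM. Both Nox4-/- lines were above WT#1-4 on each day, Nox4-/- #5-8 by far more than Nox4-/- #5-23. WT#20D-17 lay between the Nox4-/- lines on days 0 and 14 and below both on days 3, 5 and 7.

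Fst, the gene for the Activin antagonist follistatin, had different courses in the wild type lines. In WT#1-4 it was at 7.10, 14.2, 17.2, 6.11 and 0.446 CPM, and in WT#20D-17 at 10.3, 15.5, 21.5, 61.7 and 179 CPM. In the Nox4-/- lines it stayed between 1.10 and 3.74 CPM. Both wild type lines were above the Nox4-/- lines on days 0 to 7, and on day 14 WT#1-4 was below them. In WT#20D-17 the level was 17.4-fold higher on day 14 than on day 0, and markers of several cell types moved over the same days. Of the fibroblast markers, Col1a1 was at 2.91 CPM on day 0 and 951 CPM on day 14, while Thy1 was at 14.1 and 2.57 CPM. Afp, a marker of extraembryonic endoderm, was at 1.15 and 667 CPM, and Acta2, a muscle marker, at 1.19 and 410 CPM. The sum of 8 fibroblast markers in WT#20D-17 was between 23.3 and 2996 CPM, against 44.8 to 111 CPM in WT#1-4 and 5.00 to 27.1 CPM in the Nox4-/- lines. In WT#20D-17 the sum of 8 endoderm markers was between 657 and 2079 CPM and that of 6 muscle markers between 25.7 and 1136 CPM. The part of these cells in the Fst level was not tested.

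Bmp2 was close to absent outside WT#20D-17. In that line it was at 4.06, 28.1, 90.0, 90.4 and 33.2 CPM over the days. In WT#1-4 it was at 0.152, 0.119, 0.448, 0.796 and 0.397 CPM. In the Nox4-/- lines 9 of 10 libraries had 3 counts or fewer, and the highest level was 0.210 CPM. WT#1-4 was above both Nox4-/- lines on 4 of 5 days, at levels near the floor.

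Bmp4 was detected in all 20 libraries and was higher on each later day than on day 0 in each line. Levels in WT#1-4 were 4.60, 11.6, 12.3, 17.6 and 15.8 CPM, and those in WT#20D-17 were 15.5, 60.4, 102, 72.8 and 22.4 CPM. In Nox4-/- #5-8 they were 9.30, 11.7, 15.0, 17.9 and 31.1 CPM, and in Nox4-/- #5-23 they were 4.57, 11.0, 22.8, 22.3 and 20.5 CPM. The ranges of WT#1-4 and the Nox4-/- lines overlapped, while WT#20D-17 was above them on days 0 to 7. The antisense model Gm15222 overlaps Bmp4 and had up to 151 counts in a library.

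Bmp7 was between 7.24 and 16.2 CPM in WT#20D-17 and between 0.146 and 1.40 CPM in all 15 other libraries. In WT#1-4 it was at 0.152, 1.27, 0.634, 0.721 and 0.545 CPM. In Nox4-/- #5-8 it was at 1.40, 0.797, 0.574, 0.433 and 0.788 CPM, and in Nox4-/- #5-23 at 0.892, 0.596, 0.302, 0.266 and 0.146 CPM. The lowest library of WT#1-4 was day 0, whereas day 0 was the highest in both Nox4-/- lines.

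**Figure D1:**
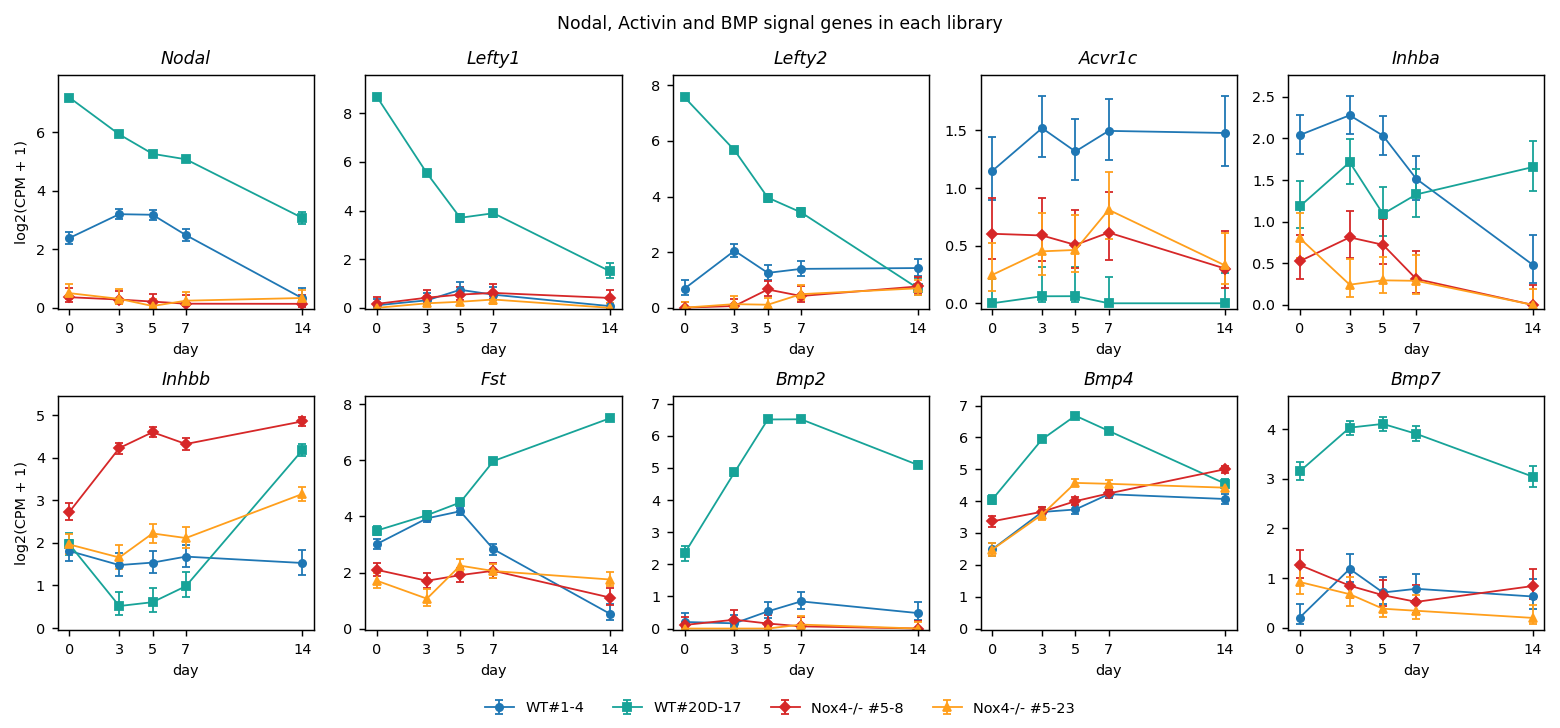
Level of each of the 10 genes, as log2 of TMM CPM plus 1, against day (0, 3, 5, 7 and 14), with 1 point per library, a line joining the 5 libraries of each cell line and bars for 95% Wilson intervals of the count. Nodal, Lefty1, Lefty2, Fst, Bmp2, Bmp4 and Bmp7 start highest in WT#20D-17, Inhbb is highest in Nox4-/- #5-8, and Bmp4 is lowest on day 0 in all 4 lines.

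Levels were ranked within each line per kilobase of exon, since transcripts differ in length. Bmp4 was the first of the 10 genes in WT#1-4, with a mean of 5.51 CPM per kb, in Nox4-/- #5-8, with 7.56, and in Nox4-/- #5-23, with 7.22. In WT#20D-17 Lefty1 was first with 54.8 CPM per kb, followed by Nodal with 27.0 and Bmp4 with 24.3. Nodal was second in WT#1-4 with 2.41 CPM per kb, and Inhbb was second in Nox4-/- #5-8 with 4.40 and in Nox4-/- #5-23 with 0.937. The lead of Lefty1 over Nodal in WT#20D-17 came from day 0, and the spread of Lefty1 over days was a standard deviation of 175 CPM around a mean of 96.3 CPM.

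The first comparison asks which genes differ between genotypes for the lines named in the study. Against WT#1-4, 7 of the 10 genes passed an FDR under 0.01 in the Nox4-/- lines, where 5.62% of all 33860 genes did (edgeR exact test, days pooled, Benjamini-Hochberg adjustment over all genes, with standard errors from a quasi-likelihood fit of the same libraries). Nodal, Lefty2, Acvr1c, Inhba, Fst and Bmp2 were lower, where 3.97% of all genes were, and Inhbb was higher, where 1.65% were. The median log2 difference of the 10 genes was -1.90, against 0 over all genes. Lefty1, Bmp4 and Bmp7 did not pass, with log2 differences of -0.35 ± 0.72, 0.42 ± 0.37 and -0.10 ± 0.50 (SE).

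Among the genes of the Nodal loop, Nodal differed by -4.66 ± 0.55 on the log2 scale (SE, FDR 2.84e-13) and Lefty2 by -2.56 ± 0.69 (FDR 0.00474). The receptor gene Acvr1c differed by -1.97 ± 0.34 (FDR 9.54e-08) and was the only one of the 10 whose libraries did not overlap between WT#1-4 and the Nox4-/- lines, as was the case for 2.07% of all genes with the Nox4-/- lines below. For the Activin genes, the difference was -2.81 ± 0.65 for Inhba (FDR 0.000355), 2.46 ± 0.61 for Inhbb (FDR 0.00253) and -1.83 ± 0.47 for Fst (FDR 0.00399). The difference of Bmp2 was -2.72 ± 0.74 (FDR 0.00355), from levels near the floor. Nodal and Acvr1c kept their calls without either Nox4-/- line and without any day. The Inhbb call rested on Nox4-/- #5-8, without which the log2 difference was 0.98 with an FDR of 0.140, and the count of genes fell to 3 without Nox4-/- #5-23 or without day 3 and to 2 without day 5 or day 7.

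Markers of other cell types moved with this comparison. Of the 8 fibroblast markers 5 were lower in the Nox4-/- lines than in WT#1-4, as were 3 of 6 muscle markers, 3 of 6 markers of primitive streak and early mesoderm, 1 of 6 neural, 1 of 6 trophoblast and 1 of 6 pluripotency markers, while 0 of 8 markers of extraembryonic endoderm passed. Against WT#20D-17, 6 of 8 fibroblast, 8 of 8 endoderm, 6 of 6 muscle, 4 of 6 streak and mesoderm, 2 of 6 neural, 6 of 6 trophoblast and 5 of 6 pluripotency markers were lower, and 3 neural and 1 pluripotency marker were higher. Of all genes 3.97% were lower against WT#1-4 and 16% against WT#20D-17. The part of these markers' cells in the differences of the 10 genes was not tested.

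Against WT#20D-17, with the same Nox4-/- libraries, 9 of the 10 genes passed, where 25.8% of all genes did by the same test. Lower in the Nox4-/- lines were 8 of them, where 16% of all genes were, and Acvr1c was higher, where 9.83% were. Log2 differences were -8.14 ± 0.54 for Nodal (FDR 1.81e-40), -8.65 ± 0.97 for Lefty1 (FDR 1.94e-15), -7.51 ± 0.94 for Lefty2 (FDR 1.28e-11) and -9.70 ± 0.71 for Bmp2 (FDR 9.80e-31). Those of Fst, Bmp7, Inhba and Bmp4 were -4.51, -4.28, -2.25 and -1.72. Acvr1c differed by 4.18 ± 0.70 (FDR 3.65e-08), a fitted value that depends on the prior count because WT#20D-17 had 2 counts. Inhbb did not pass, at 1.37 ± 0.83 (FDR 0.247). Both comparisons share the 10 Nox4-/- libraries.

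With the line as the unit, counts were summed over days and 2 wild type lines were set against 2 Nox4-/- lines. By edgeR's quasi-likelihood test 0 of the 10 genes and 0 of 20229 genes passed the FDR of 0.01. At an unadjusted p under 0.05 there were 5 of the 10 genes, Nodal, Lefty2, Inhba, Fst and Bmp2, and 1628 of all genes. Nodal differed by -7.32 ± 1.56 on the log2 scale (edgeR p 0.00983, FDR 0.604). The calls against each single wild type line thus rest on days of 1 clone taken as replicates.

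**Figure D2:**
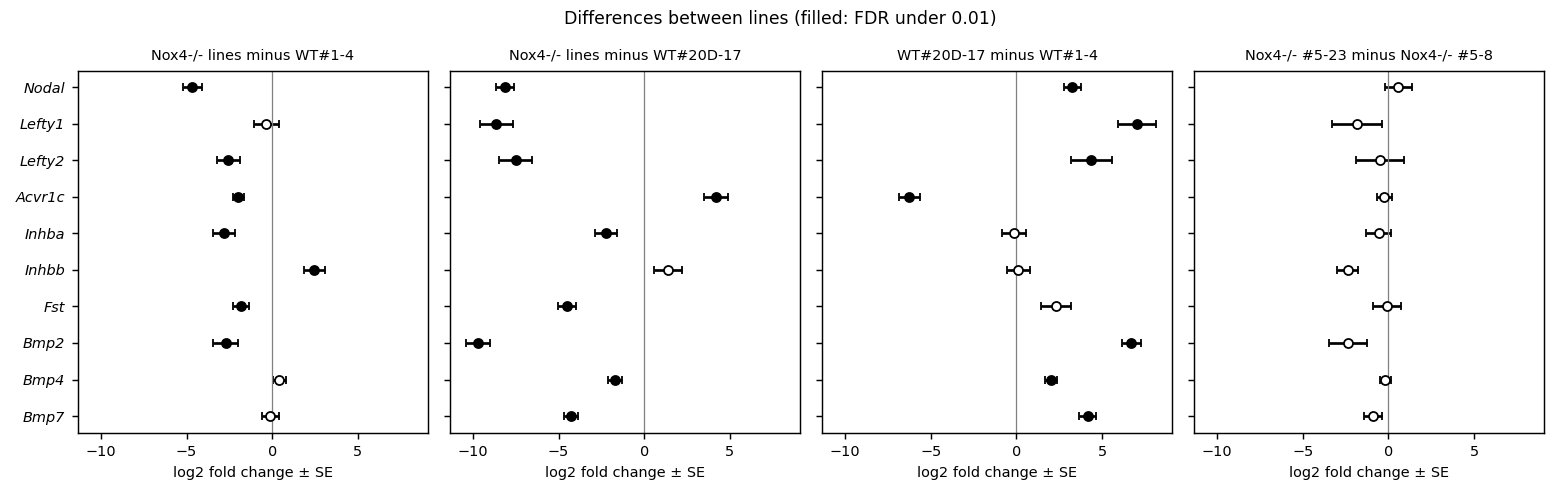
Log2 fold change with its standard error for each of the 10 genes in 4 comparisons, which are the Nox4-/- lines minus WT#1-4, the Nox4-/- lines minus WT#20D-17, WT#20D-17 minus WT#1-4, and Nox4-/- #5-23 minus Nox4-/- #5-8, with filled points at an FDR under 0.01. Nodal lies at -4.66 and -8.14 in the first 2 panels, Acvr1c at -1.97 and 4.18, and no point is filled in the last panel.

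Lines of the same genotype were compared next, in a fit of line and day. Between the wild type lines 7 of the 10 genes passed (edgeR quasi-likelihood test), where 39.8% of 18474 genes did. Higher in WT#20D-17 than in WT#1-4 were 6 genes, where 20.6% of all genes were, with log2 differences of 3.25 ± 0.50 for Nodal (FDR 4.64e-05), 7.04 ± 1.13 for Lefty1 (FDR 7.12e-05), 4.38 ± 1.18 for Lefty2 (FDR 0.00517) and 6.71 ± 0.56 for Bmp2 (FDR 5.93e-08). Bmp4 and Bmp7 differed by 2.04 and 4.16. The fitted log2 difference of Acvr1c was -6.24 ± 0.59 (FDR 2.52e-07), where 19.1% of all genes were lower. Inhba (-0.15 ± 0.69), Inhbb (0.10 ± 0.67) and Fst (2.31 ± 0.88, FDR 0.0367) did not pass. The 8 markers of extraembryonic endoderm were all higher in WT#20D-17, with sums of 657 to 2079 CPM against 1.22 to 7.77 CPM in WT#1-4, and their part in these differences was not tested.

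Between Nox4-/- #5-23 and Nox4-/- #5-8, 0 of the 10 genes passed in this edgeR fit, where 3.55% of all genes did, and 1 had an unadjusted p under 0.05. That gene was Inhbb, with a log2 difference of -2.38 ± 0.63 (FDR 0.0257). By edgeR's exact test on the 5 libraries of each line the FDR of Inhbb was 0.000208, so this call depends on the test.

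Changes over the days were tested with the 4 lines as replicates. Bmp4 changed (FDR 0.00930, edgeR quasi-likelihood F test with line as a term) and was 1 of 10 genes to pass, where 17.3% of 18474 genes did. Against day 0 its log2 difference was 1.19 ± 0.37 on day 3 (FDR 0.191), 1.78 ± 0.38 on day 5 (FDR 0.00967), 1.79 ± 0.38 on day 7 (FDR 0.00321) and 1.68 ± 0.38 on day 14 (FDR 0.00197). On these last 3 days 2.01%, 6.21% and 14.3% of all genes were higher. All 16 later libraries were above day 0 of their own line, as was the case for 3.59% of all genes in the direction of a rise. The FDR of Bmp4 was 0.00158 without WT#20D-17, 0.0859 without WT#1-4, 0.0207 without Nox4-/- #5-8 and 0.151 without Nox4-/- #5-23, and it was 0.323 without the term for line.

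Single days gave calls for Bmp2 and Nodal too. Bmp2 was higher on day 7 than on day 0 by 3.46 ± 0.82 on the log2 scale (FDR 0.00679), a day on which Bmp2 had 2036 counts in WT#20D-17 and 21 or fewer in each other line. Nodal differed on day 14 by -3.26 ± 0.75 (FDR 0.00248), where 13.5% of all genes were lower. Without WT#20D-17 the difference of Nodal was -1.98 ± 1.02 (FDR 0.125) and Bmp2 did not pass the expression filter. Inhba fell in that fit, with a log2 difference of -3.87 ± 0.73 on day 14 (FDR 0.000769), where 15.9% of all genes were lower. Over all days 2 of the 9 genes tested, Bmp4 and Inhba, passed, where 23.4% of 17021 genes did. With WT#20D-17, Inhba on day 14 differed by -1.86 ± 0.81 (FDR 0.0745).

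Whether the course over days differs by genotype was asked with terms for genotype and day. By edgeR's quasi-likelihood test 0 of the 10 genes and 2 of 19240 genes (0.0104%) passed. At an unadjusted p under 0.05 there was 1 of the 10, Bmp7 (p 0.0185 by the edgeR fit, FDR 0.583).

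Other genes of the pathway were read from lists. Of 11 receptors, co-receptors and convertases, 0 passed between the Nox4-/- lines and WT#1-4 by the exact test, where 5.62% of all genes did. Against WT#20D-17, 8 passed, where 25.8% of all genes did, and 7 of them were lower, where 16% were. The EGF-CFC co-receptor genes Cfc1 and Tdgf1 were among these, with log2 differences of -8.96 and -4.20. Cfc1 reached 96.8 CPM in WT#20D-17 on day 5 and did not exceed 0.493 CPM in the other lines. Tdgf1 was at 669 CPM on day 0 in WT#20D-17, at 41.5 CPM on day 5 in Nox4-/- #5-8 and at no more than 8.70 CPM in WT#1-4. Acvr1, the gene for a type I receptor of BMPs and Activin, was higher by 1.21.

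Foxh1, the DNA-binding partner of Smad2 in Nodal signaling, was lower in the Nox4-/- lines than in both wild type lines. The log2 difference was -2.11 against WT#1-4 (FDR 0.00128) and -7.75 against WT#20D-17 (FDR 4.34e-36). Its level was between 0.494 and 2.27 CPM in WT#1-4, between 8.34 and 113 CPM in WT#20D-17 and at most 0.839 CPM in the Nox4-/- lines. Smad5 and Smad1, which carry the BMP signal, differed by -0.53 and -0.63 from WT#1-4, and these 3 were the calls among 7 Smads and partner genes, where 5.62% of all genes passed. Against WT#20D-17, 5 of the 7 passed, where 25.8% of all genes did, with log2 differences of -0.91 for Smad1, -0.92 for Smad2, 1.12 for Smad5 and 3.14 for Smad9.

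Genes known to respond to Nodal or Activin divided the wild type lines. Gsc, Mixl1, Eomes, Lhx1 and Foxa2 were all called higher in WT#20D-17 than in WT#1-4, where 20.6% of all genes were. All 5 were called lower in the Nox4-/- lines than in WT#20D-17, where 16% of all genes were. The median log2 difference was 6.93 for WT#20D-17 minus WT#1-4 and -7.11 for the Nox4-/- lines minus WT#20D-17. Between the Nox4-/- lines and WT#1-4 0 of the 5 passed by the exact test, where 5.62% of all genes did. Their median difference was -0.23. In WT#1-4 the highest count in a library was 2 for Mixl1, 8 for Foxa2, 10 for Lhx1 and 18 for Gsc. A fall from levels so near the floor can be missed. It was called in this test for Bmp2 and Cer1, with at most 21 and 16 counts in a WT#1-4 library. No conclusion on the response genes is drawn beside the call of Nodal. Of Lefty1 and Lefty2, which Nodal is known to induce, Lefty2 was called lower in the same test (log2 difference -2.56, FDR 0.00474). Lefty1 was not called there, with a log2 difference of -0.35 ± 0.72 (SE). Eomes was at 1.14 to 8.53 CPM in WT#1-4 and at 1.45 to 6.73 CPM in the Nox4-/- lines. Lhx1 did not exceed 0.373 CPM in WT#1-4 and 0.0963 CPM in the Nox4-/- lines, against 4.36 to 81.2 CPM in WT#20D-17.

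**Figure D3:**
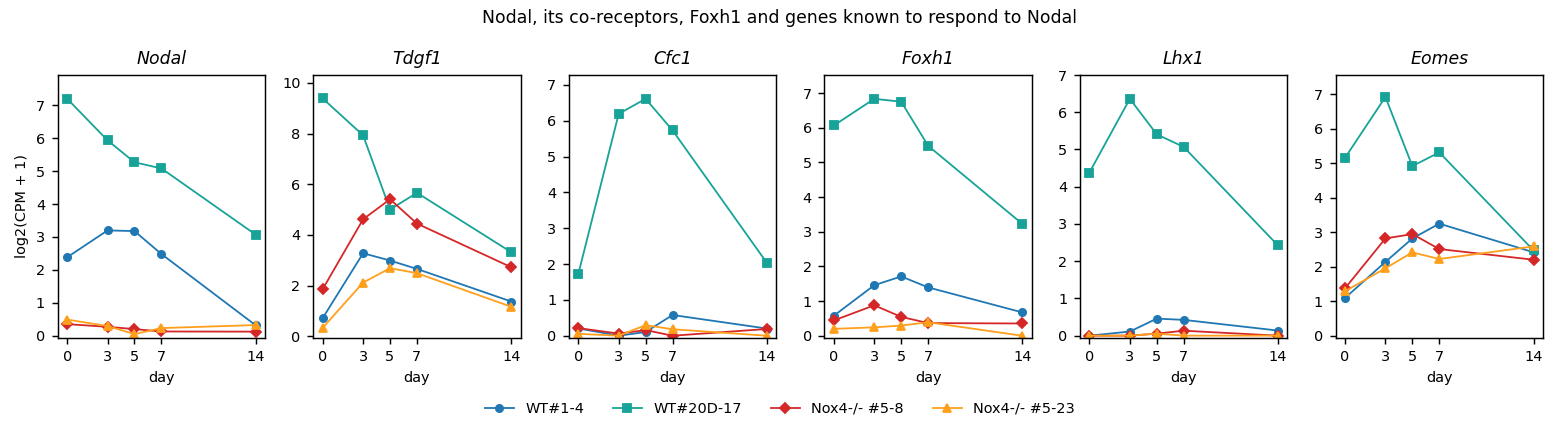
Nodal, the co-receptor genes Tdgf1 and Cfc1, the partner gene Foxh1 and the response genes Lhx1 and Eomes, as log2 of TMM CPM plus 1 against day, with 1 point per library and a line per cell line. Nodal separates WT#1-4 from the Nox4-/- lines on days 0 to 7, while Eomes has overlapping ranges and Lhx1 does not exceed 0.373 CPM in those 3 lines.

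Genes known to respond to BMP were read beside Bmp4. Over the days 4 of 8 passed in the 4 lines, Smad6 (FDR 0.00236), Id2 (FDR 0.00604), Id1 (FDR 0.00664) and Id3 (FDR 0.00767), where 17.3% of all genes did. Without WT#20D-17, 4 of 8 passed too, where 23.4% of all genes did, and these were Id1, Smad6, Id3 and Smad7, while Id2 had an FDR of 0.0167. Id1 was at 45.3 CPM on day 0 and 495 CPM on day 14 in WT#1-4, at 123 and 623 CPM in Nox4-/- #5-8, at 63.0 and 216 CPM in Nox4-/- #5-23 and at 14.3 and 63.3 CPM in WT#20D-17. Smad6, an inhibitory Smad, was at 1.06, 2.87, 1.08 and 2.79 CPM on day 0 in the same order of lines and at 21.3, 21.9, 10.2 and 12.5 CPM on day 14. Id1 and Smad6 were thus higher on day 14 than on day 0 in each of the 4 lines. Id3 was higher on day 14 in 3 lines and was at 35.9 CPM on day 0 and 30.9 CPM on day 14 in WT#20D-17, with 167 CPM on day 5. Between the Nox4-/- lines and WT#1-4, 1 of the 8 passed, Msx1, which was higher in the Nox4-/- lines by 1.73 (FDR 0.000506), where 1.65% of all genes were. Against WT#20D-17, 4 of the 8 passed, where 25.8% of all genes did, with log2 differences of -6.96 for Msx2, -2.25 for Smad7, -2.14 for Smad6 and 2.80 for Id4.

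**Figure D4:**
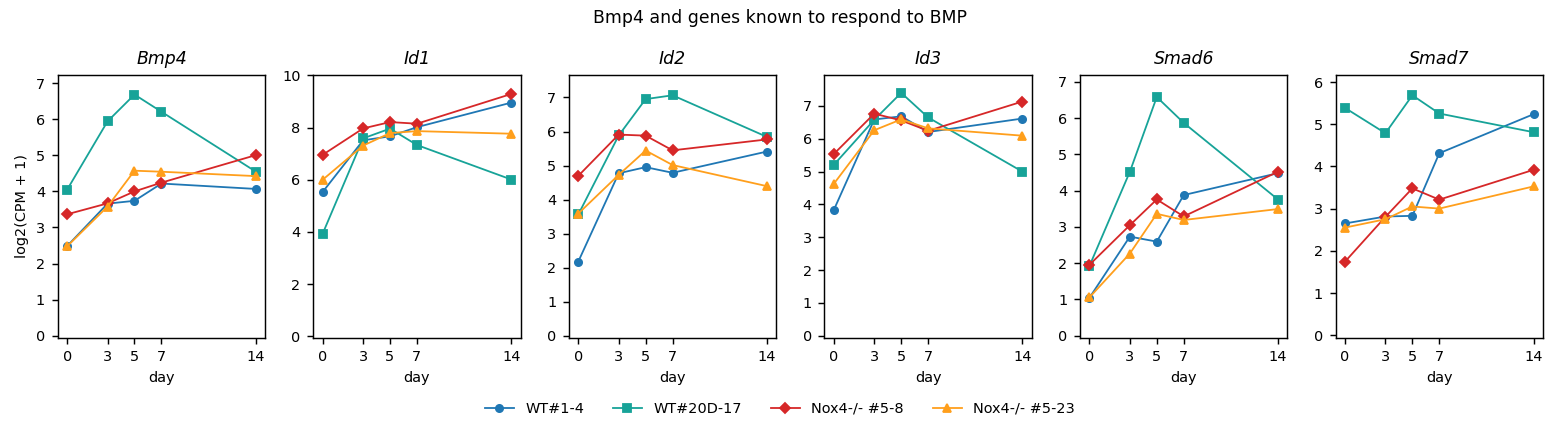
Bmp4 and the BMP response genes Id1, Id2, Id3, Smad6 and Smad7, as log2 of TMM CPM plus 1 against day, with 1 point per library and a line per cell line. Bmp4, Id1 and Smad6 have their lowest level on day 0 in all 4 lines, and WT#20D-17 has its highest Bmp4 and Smad6 levels on day 5.

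Of 9 other extracellular inhibitors, 4 were lower in the Nox4-/- lines than in WT#1-4, where 3.97% of all genes were, and 0 higher, where 1.65% were. Bmper, Grem1 and Nog, which bind BMPs, differed by -2.57, -3.22 and -2.94 on the log2 scale. Cer1 (cerberus), which binds Nodal and BMPs, passed at levels near the floor (FDR 0.00967), with 1 count over all 10 Nox4-/- libraries and 0, 3, 7, 16 and 0 counts over the days in WT#1-4. Bmper was between 19.6 and 40.7 CPM in WT#1-4 and between 2.45 and 9.10 CPM in the Nox4-/- lines. These libraries did not overlap, as was the case for 2.07% of all genes with the Nox4-/- lines below. Grem1 was at 29.4 CPM on day 0 and 2.33 CPM on day 14 in WT#1-4. Against WT#20D-17, 8 of the 9 passed, where 25.8% of all genes did, and 7 were lower, where 16% were, with a median log2 difference of the 9 genes of -2.02. Nog, Chrd and Bambi were among the lower ones, with differences of -6.89, -3.54 and -1.67, and Fstl1, a follistatin-like gene, was the 1 that was higher, by 2.79.

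Of 7 other ligands, 2 passed against WT#1-4, where 5.62% of all genes did. Gdf3, a Nodal-related ligand, was higher in the Nox4-/- lines by 3.93 (FDR 7.96e-08), with levels of 15.1 to 26.4 CPM in Nox4-/- #5-8, 2.66 to 10.9 CPM in Nox4-/- #5-23 and 0.149 to 1.72 CPM in WT#1-4. In WT#20D-17 Gdf3 was at 41.5 CPM on day 0, above every Nox4-/- library, and at 0.577 CPM on day 14, and the log2 difference of the Nox4-/- lines from that line was 0.17 (FDR 1). The difference of Bmp6 from WT#1-4 was -3.50 (FDR 0.00466), and its level was at 2.24 and 48.2 CPM on days 0 and 14 in WT#1-4, against 0.0399 and 3.20 CPM in Nox4-/- #5-8 and 0.0372 and 7.25 CPM in Nox4-/- #5-23. Bmp6 was 1 of 4 ligands in this list that changed over the days (FDR 2.75e-05), with Bmp8b, Bmp5 and Inha, where 17.3% of all genes did. Bmp5 had 3 to 422 counts in the libraries of WT#20D-17, at most 16 in those of WT#1-4 and at most 1 in those of the Nox4-/- lines. Without WT#20D-17, Bmp5 did not pass the expression filter, and 3 of 6 ligands tested, Bmp6, Bmp8b and Inha, changed, where 23.4% of all genes did. Against WT#20D-17, 5 of the 7 ligands passed and all 5 were lower in the Nox4-/- lines, where 16% of all genes were, with a median log2 difference of the 7 of -2.85.

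Genes most like some of the 10 were found by Pearson's r of log2 CPM plus 1 over the 20 libraries, with genes under a mean of 5 CPM left out, as a description. Nodal was most like Trh (r 0.972), Utf1 (r 0.962) and Fndc3c1 (r 0.955), and Lefty1 most like Zfp990 (r 0.988), Tdgf1-ps1 (r 0.987) and Kcnj3 (r 0.987). Bmp4 was most like AI464131 (r 0.932), Tmem9 (r 0.929) and Smad6 (r 0.921), and Inhba most like Chn2 (r 0.900), Tex15 (r 0.895) and Nrcam (r 0.876). The points share lines and days, and the 5 libraries of WT#20D-17 set much of the range for Nodal and Lefty1.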

How the data were processed

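RNA-seq of 20 libraries was made with a stranded mRNA kit. The authors trimmed the reads, mapped them to mm10 (GRCm38) with STAR 2.6.0c and estimated gene-level counts with RSEM 1.3.1, as their methods and processing notes give it. The authors deposited the expected counts per gene in 1 table, without normalization, and these were rounded to whole numbers here. Whether strand was used in counting is not given in the sources used here. Expected counts of Bmp4 had decimals in 0 libraries, so they lacked the mark of reads divided between sequences. Whether antisense reads were counted for Bmp4 was not tested. Of 55573 identifiers, 55480 were found in GENCODE M21, which gave symbols, coordinates and exon lengths. RefSeq promoters covered 5 of the 10 genes, and protein sequences were not used here.

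Tests were run in edgeR 4.0.16, with DESeq2 1.42.0 as an alternative, under R 4.3.3 and at an FDR under 0.01. Standard errors beside exact tests came from a quasi-likelihood fit of the same libraries. Genotype was tested with the study's exact test on all genes with a nonzero value, separately against each wild type line, and on counts summed by line. Day, genotype by day and line contrasts used quasi-likelihood fits after edgeR's expression filter, with line as a block, since the libraries of a number in the labels are the same cell line. The study's model for time was not run. Scripts were tested on simulated data. Intervals are 95% Wilson intervals for a count and exact (Clopper-Pearson) for a ratio, and cover counting error only.

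All 10 genes are named. Of each pathway list up to 4 genes of smallest FDR with a mean of at least 1 CPM were named as examples per test, and further genes of the lists were named after their values were seen. Of 2 lists, 1 gene each is not reported here, and the counts leave it out. The members and lists were chosen with earlier results of these data known. Alternatives covered tests, normalization, filters, threshold, line block, lines and days left out.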

Additional observations from a re-analysis of the deposited data

Results flagged for a closer look

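For 3 of the 10 genes both wild type lines moved one way from day 0 and both Nox4-/- lines the other on some days. Moves are in log2 of CPM plus 1, and the share of all genes with such opposite moves was not counted. These opposite moves were not tested day by day, and over all days none of the 10 genes passed the edgeR test of genotype by day (1 at an unadjusted p under 0.05). For Bmp7 the change from day 0 to day 3 was 0.98 in WT#1-4 and 0.88 in WT#20D-17, against -0.42 in Nox4-/- #5-8 and -0.25 in Nox4-/- #5-23. On day 5 the changes of Bmp7 were 0.50, 0.96, -0.61 and -0.54 in the same order, and on day 7 they were 0.58, 0.76, -0.74 and -0.58. On day 14 Bmp7 in WT#20D-17 was at 7.24 CPM, below its 7.87 CPM on day 0.

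For Fst the change from day 0 to day 3 was 0.91 and 0.54 in WT#1-4 and WT#20D-17, against -0.39 and -0.64 in the knockout lines. On days 5 and 7 Fst in Nox4-/- #5-23 was at 3.74 and 3.15 CPM, above its 2.27 CPM on day 0, and on day 14 Fst in WT#1-4 was at 0.446 CPM, below its 7.10 CPM on day 0. For Inhbb the direction was the other way, with changes on day 5 of -0.27 and -1.36 in the wild type lines against 1.87 and 0.26 in the Nox4-/- lines. On day 7 those of Inhbb were -0.13, -0.98, 1.59 and 0.15. On day 3 Inhbb in Nox4-/- #5-23 fell from 2.90 to 2.15 CPM, and on day 14 WT#20D-17 was at 17.1 CPM, above its 2.91 CPM on day 0.

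Acvr1c differed in opposite directions against the wild type lines, with a log2 difference of the Nox4-/- lines of -1.97 against WT#1-4 and 4.18 against WT#20D-17. The difference between these wild type lines, -6.24 for WT#20D-17 minus WT#1-4, passed its test, and it rests on 2 counts in WT#20D-17.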

How the results depend on the processing

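Over all comparisons 487 of 554 gene values under an alternative kept their side of the threshold and, in comparisons with a direction, their direction. In the comparison with WT#1-4, 96 values did so, while 33 lost a call, 2 gained a call and 6 turned direction. The tests over the days and of genotype by day had no direction to keep. Against WT#1-4, 7 genes passed, and 3 did with the quasi-likelihood test without day, at an FDR under 0.001 or without day 3, and 2 without day 5 or day 7. Leaving out a Nox4-/- line gave 3 to 5 genes. Nodal passed in 13 of 13 alternatives, Acvr1c in 13 of 14, Inhba in 10 of 14, Lefty2 in 8 of 14, Bmp2 in 7 of 13 and Inhbb and Fst in 6 of 14 each. An alternative that gave a gene no FDR was left out of its total, so Nodal and Bmp2 have 13 and not 14. Acvr1c was lost with both wild type lines (FDR 0.478). Genes that did not pass turned direction, with Lefty1 at -1.28 to 0.22 and Bmp7 at -0.56 to 0.26 without a Nox4-/- line (the positive values without Nox4-/- #5-23), Bmp7 at 0.25 without day 3 and 0.077 without day 7, Lefty1 at 0.033 without day 5 and Bmp4 at -1.01 with both wild type lines. Against WT#20D-17 Inhbb was at -0.11 to 2.11 without a Nox4-/- line, negative without Nox4-/- #5-8, and 8 to 10 genes passed throughout.

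With the line as the unit 0 genes passed, while DESeq2 gave 6, and leaving out a line gave 0 to 2, the 2 without WT#1-4. Without a wild type line Acvr1c was at -1.96 to 4.51, positive without WT#1-4, and Bmp4 at -1.67 to 0.45, positive without WT#20D-17. Over the days 1 gene passed with line as a block, 0 with no replicate block, 2 with no expression filter and 0 to 2 without a line. Genotype by day gave 0 genes and 0 with no replicate block, and 0 to 2 without a line, the 2 without WT#1-4. Between the Nox4-/- lines the exact test gave 1 gene against 0, and Fst turned to 0.00078. The causes were not tested. Genes at or under 3 counts, such as Bmp2 in the Nox4-/- lines, cannot show a difference below that floor.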
